A study of Mus musculus with 15 samples.

Results

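The 15 libraries of the series fell into a pair of sets by their replicate number: 6 libraries numbered 1 or 2 (2 in each hairpin group) and 9 libraries numbered 3, 4 or 5 (3 in each). All 15 libraries took part. The split is in no label. The sets were chosen by measured values, the scores of the libraries on the first principal component of these same gene values around the hairpin group means, so every difference between the sets is given below as a description and without a test. The RNA came from the embryonic stem cell (ESC) line E14, mouse cells of 129/Ola background, grown without feeder cells on gelatin in medium with serum and LIF. The cells carried a lentiviral pLKO.1 vector with a non-targeting short hairpin RNA (shScr), a hairpin against Tet1 (shTet1) or a hairpin against Tet2 (shTet2), and were collected after 3 days of puromycin selection. Each target had 1 hairpin, so that an effect of the hairpin itself and of the loss of its target cannot be told apart. RNA was extracted with either QIAzol or the Quick-RNA Midiprep kit, without a record of which library had which, and ribosomal RNA (rRNA) was depleted before directional ScriptSeq Complete Gold libraries were made. Nothing in the labels gives a batch, a date or a separate culture for any library, so p-values measure the spread between these samples only.

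RNA depleted of rRNA holds several kinds of transcript beside nuclear messenger RNA. Mitochondria transcribe their own small genome into RNAs for subunits of the respiratory chain and of ATP synthase, and ESCs also transcribe tandem satellite DNA near centromeres and transposable elements such as L1 and the endogenous retrovirus MERVL. Replication-dependent histone mRNAs lack a poly(A) tail, so they are seen in total RNA. In bulk RNA, fewer cells of a type and less RNA per cell cannot be told apart.

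Gene reads per library ranged from 18580994 to 28008886 in replicates 1 and 2 and from 15258291 to 35432425 in replicates 3 to 5, so that the sets overlapped in depth. Values below are on the deposited variance-stabilised scale, which approaches log2 for well-covered features and understates the change of low ones, and every difference is replicates 1 and 2 minus replicates 3 to 5, averaged over the 3 hairpin groups. A feature is called separated where, in each of the 3 hairpin groups, both libraries of replicates 1 and 2 lay above, or both lay below, all 3 libraries of replicates 3 to 5. By this rule 550 genes (2.82% of 19490) were higher and 621 (3.19%) lower. The first principal component of the deviations from the group means, which led to the split, held 37.9% of the variance of 19490 tested genes and took values of 0.28 to 0.34 in replicates 1 and 2 and of −0.25 to −0.16 in replicates 3 to 5. Between the sets lay 29.8% of the sum of squares of these genes, against 20.6% between hairpins and 23.6% between replicate numbers within a set. Without 13 genes of the mitochondrial genome and 15 predicted genes in satellite DNA, both described below, the share between the sets was 18.6%, below the 24.0% between hairpins and the 27.2% between numbers within a set, the component held 26.4%, and 3 libraries of replicates 3 to 5 lay above the lowest library of replicates 1 and 2 (an alternative added after the values were seen). Cultures of all libraries had the ESC markers: the summed reads of 8 of them, Pou5f1, Sox2 and Nanog included, were 3784 to 4709 per 1000000 gene reads (RPM) in replicates 1 and 2 and 3386 to 4302 in replicates 3 to 5.

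RNA of the mitochondrial genome was present in all 6 libraries of replicates 1 and 2, and its genes were listed at 0 reads in all 9 libraries of replicates 3 to 5. The 13 genes, which encode subunits of respiratory complexes I, III and IV and of ATP synthase, took 14677 to 23968 RPM in replicates 1 and 2 (median 20404). Their summed reads were 369782 to 637597 per library. The deepest of them was mt-Co1, a subunit of cytochrome c oxidase (complex IV) at positions 5328 to 6872 of the mitochondrial genome. It had 301727 and 244351 reads in shScr replicates 1 and 2, 249475 and 331417 for shTet1, and 334195 and 430365 for shTet2. The shallowest, mt-Nd4l, a subunit of complex I, still had 524 to 1368 reads. Differences in the deposited values ran from 5.55 for mt-Nd4l to 13.79 for mt-Co1 and are set by the lowest value of the table, which stands for 0 reads. Whether these RNAs were absent from the 9 libraries or left out before or during counting cannot be told apart from the tables. Of the 84 nuclear genes of the respiratory chain, complex II included, and of ATP synthase that were tested, 2 were higher and 3 lower (2.38% and 3.57%, near the shares of all genes), with a median difference of 0.00. The higher of them were Atp5g2, a subunit of the ATP synthase ring (0.94), and Sdhb, and the lower were Cox7b2, Sdha and Atp5j.

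Transcripts of satellite DNA differed in the opposite direction. The 15 predicted genes lower by 3 units or more, picked after their values were seen, lay in a pair of short regions of the mm9 genome: Gm10801 and Gm10800 on chromosome 2 (98502394 to 98507458) and the other 13 at the start of chromosome 9 (3000282 to 3038316). Together these 15 genes took 3.07 to 25.3 RPM in replicates 1 and 2 (median 17.4) and 583 to 9041 in replicates 3 to 5 (median 4018). By replicate number, from 3 to 5, they took 2127, 4329 and 583 RPM in shScr, while the values were 4018, 4368 and 920 for shTet1 and 9041, 5942 and 1667 for shTet2. Replicate 5 was the lowest of the 3 in each hairpin group and still far above every library of replicates 1 and 2. Single genes differed by −3.06 (Gm10716) to −8.48 (Gm10800). Gm10800 was 5.68 at the lowest, 7.30 at the median and 7.73 at the highest in replicates 1 and 2, and 13.28, 15.79 and 17.27 in replicates 3 to 5, with no overlap.

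The sequence of these genes shows why they are described as 1 group. Their loci are built of a tandem repeat: in the genomic span of 14 of the 15, identical windows of 12 bases came back most often at a spacing of 234 bases. Between 18% and 47.7% of the windows of each gene occurred in all 15 genes on either strand, and 36% to 100% occurred in at least 1 other. One unit of 234 bases is given from the Gm10800 locus (chr2:98506704-98506937, plus strand, mm9), with the 187 bases that lie in windows common to all 15 genes in capitals.
Gm10800 unit: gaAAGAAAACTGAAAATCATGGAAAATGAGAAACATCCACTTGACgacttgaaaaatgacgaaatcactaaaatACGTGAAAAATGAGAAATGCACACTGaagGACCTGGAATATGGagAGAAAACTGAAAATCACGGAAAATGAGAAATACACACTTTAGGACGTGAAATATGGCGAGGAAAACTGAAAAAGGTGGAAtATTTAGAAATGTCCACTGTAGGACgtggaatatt
Most bases of the unit thus lay in windows of 12 bases found in all 15 genes. Gm10801 shared the least, with a commonest spacing of 120 bases and 36% of its windows in another gene. Of a read with several equally good positions the authors kept 1, and how many reads of these genes had several was not counted. The values of single genes of the group are uncertain to that extent, and their sum is the firmer quantity. Reads of these genes and of the satellite repeat classes may in part be the same reads counted in both tables.

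**Figure D1:**
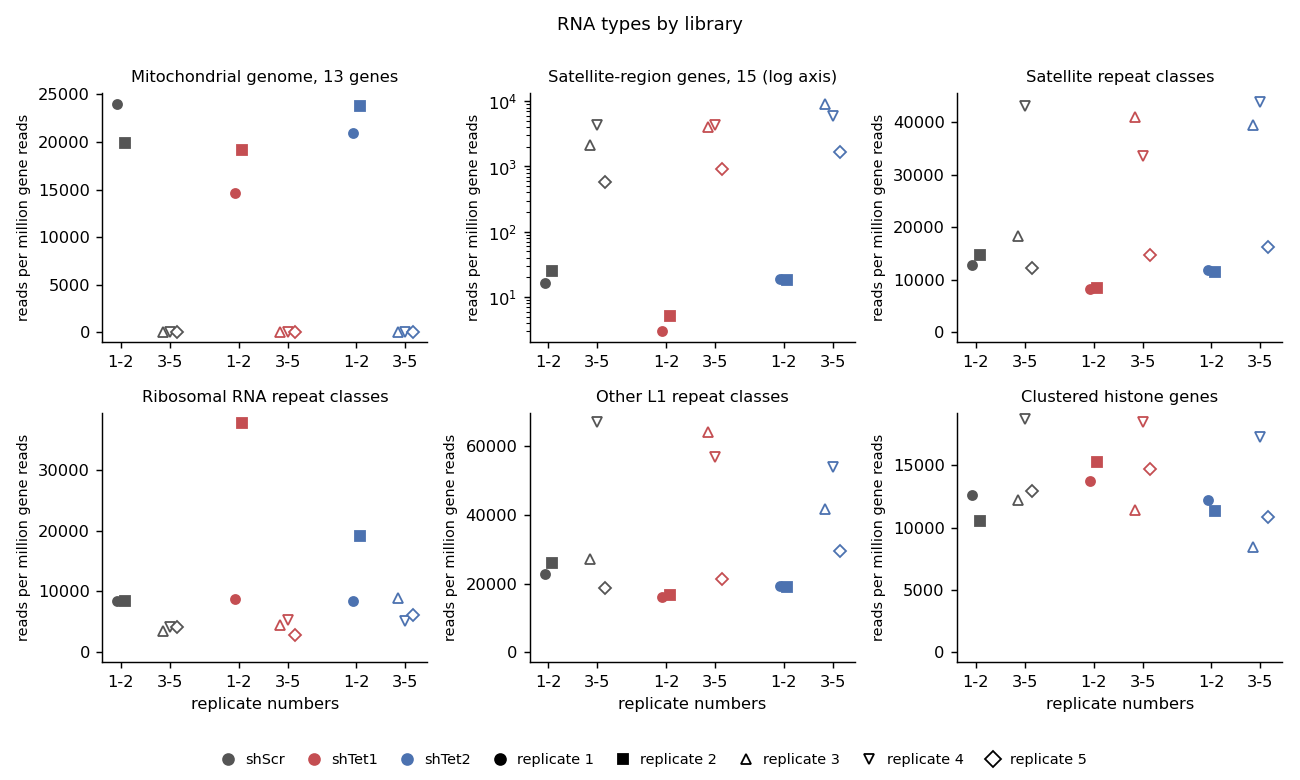
RPM, reads per 1000000 gene reads (vertical axes), of 6 RNA types in each library, with replicates 1 and 2 as filled and replicates 3 to 5 as open points in the hairpin's colour; the axis of the satellite-region genes is logarithmic. The 9 libraries of replicates 3 to 5 sit at 0 for the mitochondrial genome and between 583 and 9041 for the satellite-region genes, where replicates 1 and 2 reach at most 25.3.

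Repeat classes pool the reads of all copies of an annotated repeat, and most of them were lower on average in replicates 1 and 2. Repeat reads per 100 gene reads were 28.5 to 46.1 in replicates 1 and 2 (median 37.8) and 33.4 to 59.7 in replicates 3 to 5 (median 49.8). Over 1187 tested classes the median difference was −0.44 (shScr −0.05, shTet1 −0.69, shTet2 −0.59). The shift did not follow the sets in every library. Each library's median class was set against the mean of these medians. It was −0.44 in shScr replicate 5, below −0.12 and 0.03 in shScr replicates 1 and 2. In replicate 5 of shTet1 and shTet2 it was −0.31 and 0.08, above replicates 1 and 2 of the same hairpin. The highest values, 0.42 to 0.62, were those of replicate 4 in all 3 hairpin groups and replicate 3 of both knockdowns. Higher and separated were 7 classes, or 0.59% of those tested, and lower and separated were 47, or 3.96%. Centring each library on its own median turned this split into 100 higher and 67 lower, so the single classes are best read against the shift of the whole table. Of the shScr libraries, leaving out replicate 1, 2 or 5 moved the number lower to 74, 95 or 196.

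The class furthest down was GSAT_MM, the major satellite of mouse pericentromeric DNA, with a difference of −6.52. It was 9.34 at the lowest, 12.003 at the median and 12.71 at the highest in replicates 1 and 2, against 15.46, 18.99 and 19.44 in replicates 3 to 5. Replicate 5 was the lowest of the later replicates for this class too, with 15.46 (shScr), 15.85 (shTet1) and 16.93 (shTet2). SYNREP_MM, another satellite class, differed by −6.30 (5.50, 5.74 and 6.41 against 8.93, 12.56 and 13.74). The telomere repeat (TTAGGG)n differed by −2.76 (7.07, 7.29 and 7.87 against 8.16, 10.18 and 12.01) and its reverse complement (CCCTAA)n by −2.58. The other classes named by the same rule were RMER17D2 (−2.41) and (GGGAGA)n (−1.99). These differences are several times the shift of the table and kept their sign after centring. All 4 satellite classes together took 8298 to 14771 RPM in replicates 1 and 2 (median 11749) and 12297 to 43865 in replicates 3 to 5 (median 33550), and 2 of the 4 were separated.

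The class furthest up was LSU-rRNA_Hsa, the large ribosomal RNA, with a difference of 2.00. It was 16.52 at the lowest, 16.71 at the median and 18.91 at the highest in replicates 1 and 2 and 14.83, 15.07 and 16.51 in replicates 3 to 5. The 2 rRNA classes together took 8414 to 37599 RPM in replicates 1 and 2 (median 8644) and 2899 to 8852 in replicates 3 to 5 (median 4465). Replicate 2 of shTet1 (37599) and of shTet2 (19094) stood far above the rest, which the median of the set does not show. Other separated classes that were higher were short repeats rich in G and C, (CGCGG)n (0.98), (CCGAG)n (0.74), (CGGG)n (0.40) and (CGGGG)n (0.28), and the retroviral LTR86B1 (0.52) and MamGyp-int (0.41).

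Families of transposable elements lay on both sides of the median of the table. Over all 1187 classes, 100 were higher and 67 lower after centring, and the centred counts below are to be set beside these. The 104 classes of other L1 elements had a median difference of −0.61, or −0.14 after centring. Of these 104, 5 were separated and lower as deposited (4.81%, near the 3.96% of all classes), and 16 were lower and 7 higher after centring. The 6 young L1 classes had a median of −0.60 (−0.13 after centring), and none was separated. The short B1 elements (15 classes, −0.14) and the B4, ID and MIR elements (13 classes, −0.17) had centred medians of 0.33 and 0.30, and after centring 8 and 10 of them were higher and 0 lower. The B2 elements (−0.27) had a centred median of 0.20, with 2 of 5 higher. Among the 42 RMER classes (−0.63, centred −0.16), 7 were lower and 1 higher after centring. Among the structural RNAs, the 18 classes of small nuclear and cytoplasmic RNA had a median of 0.28 and the 59 tRNA classes of −0.12. In RPM, other L1 elements took 16215 to 26059 in replicates 1 and 2 (median 19179) and 18686 to 67039 in replicates 3 to 5 (median 41634), so that the ranges overlapped.

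Of the 550 higher and 621 lower genes, 40 and 55 differed by 1 unit or more. The median difference of all genes was −0.03. Without shScr replicate 2 the counts were 954 and 1005. Leaving out each library in turn gave 590 to 954 higher and 647 to 1005 lower, and every such run requires fewer orderings. Why the counts were highest without shScr replicate 2 was not tested. By kind of gene, 535 of 17592 protein-coding genes were higher and 584 lower (3.04% and 3.32%, near the 2.82% and 3.19% of all genes). Of 953 lincRNA genes, 5 were higher and 20 lower (0.52% and 2.10%). The 12 genes furthest up by the naming rule were all in the mitochondrial genome, so the next 12 nuclear genes were taken as well, after the values were seen.

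Nuclear genes furthest up included secreted signalling inhibitors and genes of the response to low oxygen. Lefty1 (chromosome 1, 182865153 to 182868531, mm9), a secreted inhibitor of Nodal signalling, was 9.59 at the lowest, 10.38 at the median and 11.02 at the highest in replicates 1 and 2 and 6.69, 8.88 and 9.62 in replicates 3 to 5, a difference of 1.94. Its neighbour Lefty2, with the same role, differed by 1.43 (11.01, 12.43 and 12.60 against 9.26, 10.68 and 11.69). Both ranges overlapped when hairpin groups were pooled, and neither overlapped within a hairpin group. For both genes, replicate 5 was the lowest of replicates 3 to 5 in each hairpin group. In replicate 5, Lefty1 was 6.69 (shScr), 7.25 (shTet1) and 7.58 (shTet2), and Lefty2 was 9.26, 9.93 and 10.05. Of 17 tested targets of Nodal and BMP signalling, Lefty1 and Lefty2 were the 2 separated genes (11.8% higher, against 2.82% of all genes). The median difference of this list was 0.08.

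Egln3 (chromosome 12, 55279968 to 55304847), a prolyl hydroxylase that marks hypoxia-inducible factor for destruction, differed by 1.65 (7.92, 8.96 and 10.55 against 6.97, 7.41 and 8.03). Slc16a3 (chromosome 11, 120809794 to 120822182), which carries lactate across the cell membrane, differed by 1.63 (9.98, 10.21 and 10.47 against 7.44, 8.88 and 9.40), and the sets did not overlap. Bnip3 (chromosome 7, 146082519 to 146101202), a protein of the outer mitochondrial membrane that acts in the removal of mitochondria, differed by 1.49 (10.71, 10.86 and 11.32 against 8.76, 9.53 and 10.08). All 3 are textbook targets of the hypoxia-inducible factor. Part of the differences of Slc16a3 and Bnip3 came from replicate 4, the lowest of replicates 3 to 5 in each hairpin group. In replicate 4, Slc16a3 was 7.44 (shScr), 8.18 (shTet1) and 7.60 (shTet2), and Bnip3 was 8.84, 9.28 and 8.76. In Slc16a3, 831 exon bases (15.6%) are shared with Csnk1d on the opposite strand, and as the use of strand in counting was not stated, its reads are uncertain to that extent.

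Of the list of 35 genes of glycolysis and the hypoxia response, 8 were higher and 0 lower, with a median difference of 0.47, against 2.82% and 3.19% of all genes. The other 5 were Slc2a1, the glucose transporter GLUT1 (0.94), the glycolytic enzymes Tpi1 (0.82) and Pgk1 (0.72), the carbonic anhydrase Car12 (0.79) and Pdk1, a kinase that inhibits pyruvate dehydrogenase (0.70). Slc2a1 was 12.83, 13.15 and 13.52 (lowest, median and highest) in replicates 1 and 2 and 11.20, 12.43 and 13.14 in replicates 3 to 5. Its lowest values were those of replicate 4 (shScr 11.20, shTet1 11.86, shTet2 11.59). Pgk1 was 12.46, 12.65 and 13.12 against 11.72, 12.01 and 12.23. Not every member followed: Ldha (0.63), Ankrd37 (0.63) and Hk2 (0.37) were not separated, and Vegfa, a growth factor for blood vessels, differed by 0.02. Without shScr replicate 2, 13 members were separated.

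The promoters of the 3 hypoxia genes furthest up are shown because the hypoxia-inducible factor binds a short core, here searched as ACGTG or GCGTG on both strands (a stretch such as CACGTG holds overlapping matches). Each covers 250 bases before to 50 bases after the gene's start, from RefSeq (GRCm38.p6, a later build than mm9), written 5′ to 3′ along the gene, with the matches in capitals. The windows are chr12:54203825-54204124 (minus strand) for Egln3, chr11:120948817-120949116 (plus strand) for Slc16a3 and chr7:138909457-138909756 (minus strand) for Bnip3.
Egln3: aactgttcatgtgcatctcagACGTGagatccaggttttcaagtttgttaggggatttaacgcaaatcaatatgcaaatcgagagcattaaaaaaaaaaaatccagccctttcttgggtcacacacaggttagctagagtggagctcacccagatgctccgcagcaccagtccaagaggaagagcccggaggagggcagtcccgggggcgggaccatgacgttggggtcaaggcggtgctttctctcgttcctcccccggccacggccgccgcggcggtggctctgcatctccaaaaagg
Slc16a3: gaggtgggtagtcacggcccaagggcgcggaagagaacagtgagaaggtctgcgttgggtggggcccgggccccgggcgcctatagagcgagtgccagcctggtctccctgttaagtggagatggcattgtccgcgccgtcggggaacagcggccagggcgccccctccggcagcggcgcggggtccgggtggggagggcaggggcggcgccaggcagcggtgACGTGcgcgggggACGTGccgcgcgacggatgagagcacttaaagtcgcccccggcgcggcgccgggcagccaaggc
Bnip3: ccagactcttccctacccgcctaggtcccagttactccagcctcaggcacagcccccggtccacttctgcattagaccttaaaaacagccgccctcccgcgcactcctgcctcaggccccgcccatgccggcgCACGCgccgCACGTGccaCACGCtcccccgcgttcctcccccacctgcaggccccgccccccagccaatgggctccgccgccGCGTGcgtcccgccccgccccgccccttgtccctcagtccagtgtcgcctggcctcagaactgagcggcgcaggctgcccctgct
Egln3 held 1 match, Slc16a3 2 and Bnip3 5. Of the list, 31 genes had a RefSeq promoter, and 24 of these (77.4%) held the core, against 57.8% of the 12588 promoters of tested genes and 43.8% of all 27025. The core did not mark the members that were higher: it stood in 6 of 8 (75%) of them and in 78.3% of the rest of the list. A match is a description of the letters and not of binding.

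Sterol synthesis genes were a further group that was higher. Of the list of 24, 8 were higher and 1 lower (33.3% and 4.17%, against 2.82% and 3.19% of all genes), with a median difference of 0.55. Lss, which makes lanosterol, differed by 0.86 (10.33, 10.54 and 10.85 against 9.38, 9.66 and 9.91). Insig1, which retains the sterol sensor complex in the endoplasmic reticulum, differed by 0.80 (10.09, 10.44 and 11.32 against 9.43, 9.81 and 10.38). The enzymes Fdps (0.71), Sqle (0.66), Fdft1 (0.65), Mvk (0.61) and Cyp51 (0.56) were also higher and separated. The member that was lower was Ebp (−0.57), an isomerase of the late pathway. Srebf2, the factor that drives the pathway (0.56), was not separated. In the 16 genes of fatty acid synthesis, Fads1, a desaturase, was the 1 separated gene (0.73), with a median of 0.25 over the list. The sterol response letters TCACNCCAC were in 0 of 15 promoters of the list, against 1.18% of the promoters of tested genes, and Fdps had no promoter entry.

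Remaining nuclear genes furthest up were Ccdc107 (1.64), Gadl1 (1.30), Pnma5 (1.29), Acot1, which splits long-chain acyl-CoA (1.24), Sp110 (1.22) and Trp53i11 (1.21). Ccdc107 was 8.72, 9.85 and 10.37 in replicates 1 and 2 and 7.48, 8.03 and 8.67 in replicates 3 to 5. It shares 124 exon bases (8.02%) with the gene of the RNase MRP RNA on the opposite strand, an abundant structural RNA that was not in the gene table, and Gadl1 shares 162 (4.02%) with a pseudogene. Of the 24 named nuclear genes, these and Slc16a3 were the 3 with such an overlap.

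**Figure D2:**
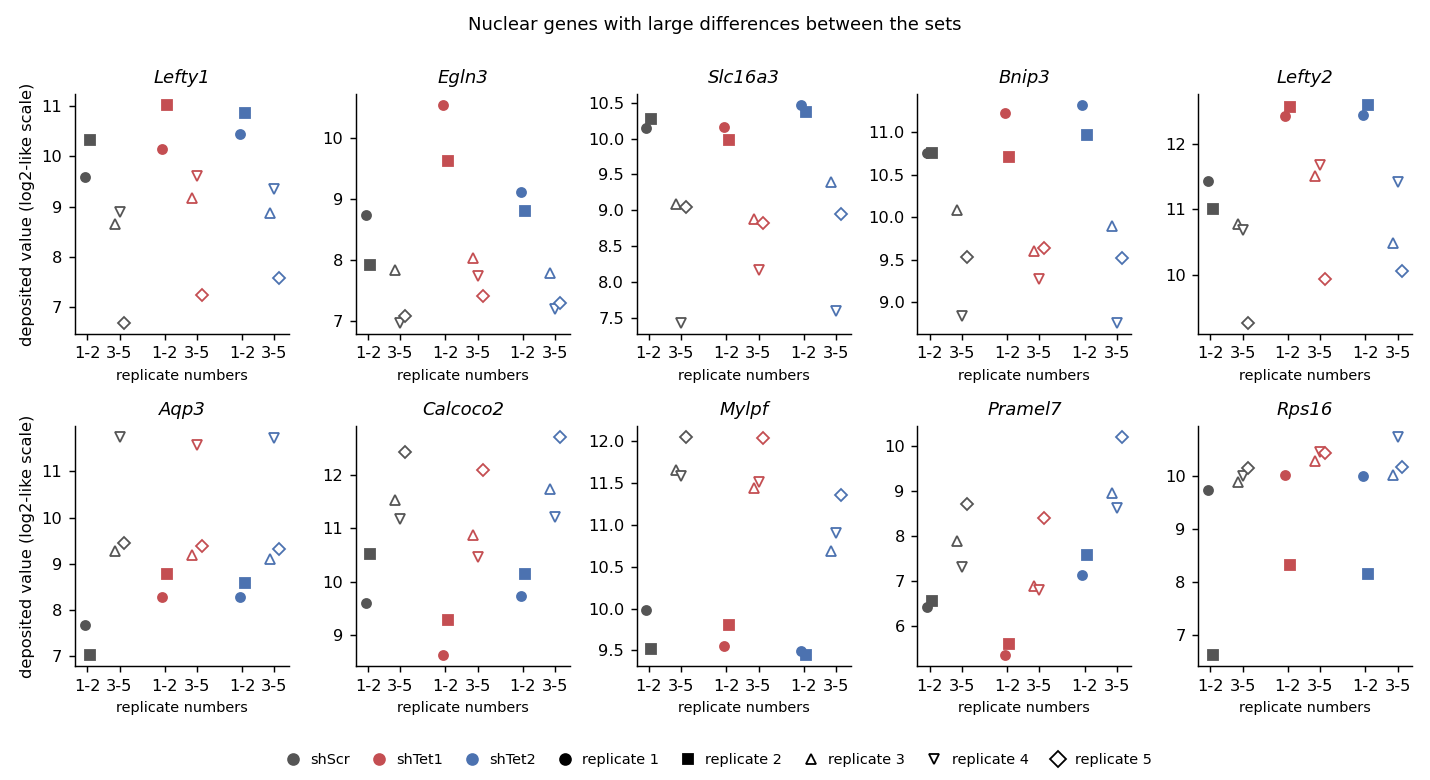
Deposited values (vertical axes, log2-like scale) of 5 nuclear genes higher and 5 lower in replicates 1 and 2, in each library, with replicates 1 and 2 filled and 3 to 5 open. Slc16a3 and Bnip3 do not overlap between the sets, Aqp3 stands at 11.57 to 11.74 in the libraries of replicate 4, and Rps16 is lowest in the libraries of replicate 2.

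Named genes lower in replicates 1 and 2 came from many functions. Aqp3 (chromosome 4, 41039755 to 41045216), a channel for water and glycerol, differed by −1.98 (7.03, 8.29 and 8.77 against 9.11, 9.39 and 11.74). Much of this came from replicate 4, with 11.74 (shScr), 11.57 (shTet1) and 11.73 (shTet2). Calcoco2 (chromosome 11, 95960640 to 95973278), a receptor of selective autophagy, differed by −1.94 (8.62, 9.66 and 10.52 against 10.46, 11.53 and 12.72). Mylpf (chromosome 7, 134355122 to 134357812), a myosin light chain of fast muscle, differed by −1.84 (9.45, 9.54 and 9.98 against 10.68, 11.51 and 12.05), with no overlap. Pramel7, a member of the PRAME family (−1.76), was 5.35, 6.48 and 7.57 against 6.80, 8.40 and 10.19. Mme, the membrane peptidase neprilysin (−1.28), did not overlap either (9.48, 10.03 and 10.69 against 10.81, 11.27 and 11.82). The others by the rule were Ak7, an adenylate kinase (−1.42), Ankrd45 (−1.33), Abcb5, an ABC transporter (−1.23), Hecw2, a ubiquitin ligase (−1.22), Wls, which carries Wnt proteins to the cell surface (−1.18), and Rsph4a, a protein of the ciliary radial spoke (−1.18).

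Ribosomal protein genes were the list with the most lower members. Of 83 cytosolic ribosomal protein genes, 10 were lower and 2 higher, with a median difference of −0.11. Rps16 (chromosome 7, 29135671 to 29137715) differed by −1.43 (6.62, 9.03 and 10.03 against 9.88, 10.17 and 10.74). Its low values were those of replicate 2 (shScr 6.62, shTet1 8.33, shTet2 8.14), whereas replicate 1 (9.74, 10.03 and 10.01) lay close to replicates 3 to 5. Rps7 (−1.09) was 13.40, 13.66 and 13.73 against 13.87, 14.82 and 15.25. Rplp1 (−0.99), of the ribosomal stalk, was 13.15, 13.41 and 13.86 against 14.14, 14.41 and 14.77, without overlap. The other lower members included Rps29 (−0.93), Rps3a (−0.78) and Rps9 (−0.60), and the higher ones were Rpl10a (0.65) and Rpsa (0.28). Without shScr replicate 2, 16 members were lower. Ribosomal protein genes have many processed copies in the genome, which can draw reads away in counting, and their summed RPM overlapped (23551 to 29751 against 25683 to 32185). Translation initiation factors (58 tested) held 2 lower genes, Eif2s2 (−0.70) and Eif5 (−0.64), a share of 3.45% that is near the 3.19% of all genes. Mitochondrial ribosomal proteins (76 tested) held 4 lower (5.26%) and 0 higher.

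Histone genes of the replication-dependent clusters divided by class. Of 67 tested, 9 were higher and 0 lower (13.4% and 0%, against 2.82% and 3.19% of all genes), although the list's median difference was 0.01. Of the 9, 8 were H4 genes, out of 13 tested (median 0.69), and the ninth was the H3 gene Hist1h3g, out of 11 (median 0.53). None of 19 H2A genes (median −0.45), 18 H2B genes (median 0.13) or 6 linker histone H1 genes (median −0.33) was separated. Hist1h4f was 11.88, 12.05 and 12.46 (lowest, median and highest) in replicates 1 and 2 and 10.61, 11.08 and 11.79 in replicates 3 to 5, a difference of 0.92, and Hist1h4n (0.87) and Hist1h4h (0.86) were alike. The summed reads of the clusters overlapped, at 10555 to 15269 RPM in replicates 1 and 2 and 8458 to 18683 in replicates 3 to 5. Genes of a class are near-identical copies, so the assignment of reads among them is uncertain. Without shScr replicate 2 the number was 15, and without shScr replicate 4 it was 14.

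Genes that define the state of ESCs were separated in small numbers, to be set beside the 2.82% higher and 3.19% lower of all genes. In the list of 15 core pluripotency genes, Sox2 was higher (0.38; 6.67% of the list), the median was 0.07, and Nanog was not separated (−0.67). Of 22 naive genes, Tdh, a threonine dehydrogenase typical of mouse ESCs, was higher (0.31) and Fbxo15 (−0.75) and Spp1 (−0.73) were lower (4.55% and 9.09% of the list), with a median of −0.16. Of 18 genes of the primed epiblast, Otx2, a homeobox factor of the epiblast (0.62), and Epha1 (0.56) were higher (11.1%), with a median of 0.26. Lists with 0 separated genes in either direction included 41 genes of amino acid stress driven by ATF4, 24 immediate early genes and 18 WNT targets, whereas 3 of 22 genes of the oxidative stress response were higher (Gclc, which makes glutathione, by 0.41, Gsr by 0.38 and Taldo1 by 0.22). Polycomb and trithorax genes (25 tested) held 3 lower members, Eed (−0.54), Rnf2 (−0.35) and Rbbp5 (−0.30).

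Markers of other cell types were at low levels in both sets. Summed RPM were 1.41 to 13.1 in replicates 1 and 2 and 3.98 to 8.91 in replicates 3 to 5 for 5 primitive endoderm markers, and 0.14 to 1.24 against 0.46 to 3.44 for 5 trophoblast markers. The 4 neural markers found summed to 31.7 to 44.7 against 44.9 to 70.2, and 1 of them, the tubulin Tubb3, was lower (−0.54). The 4 mesoderm markers summed to 3.32 to 5.73 against 1.58 to 10.7. For 7 fibroblast or feeder markers the sums were 4.84 to 12.1 against 7.01 to 13.1, and 1 of them, Postn, was lower (−0.81). The trophoblast marker Tpbpa was at 0 in all 15 libraries, and Elf5 and the endoderm marker Afp were each at 0 in 9. Olfactory and vomeronasal receptor genes, known for their role in the nose, took 11.1 to 18.2 RPM in replicates 1 and 2 and 12.9 to 64.7 in replicates 3 to 5, and the highest were the 3 libraries of replicate 4 (54.5 to 64.7) with shTet1 replicate 3 (56.3). The part of such reads in the gene differences was not tested.

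**Figure D3:**
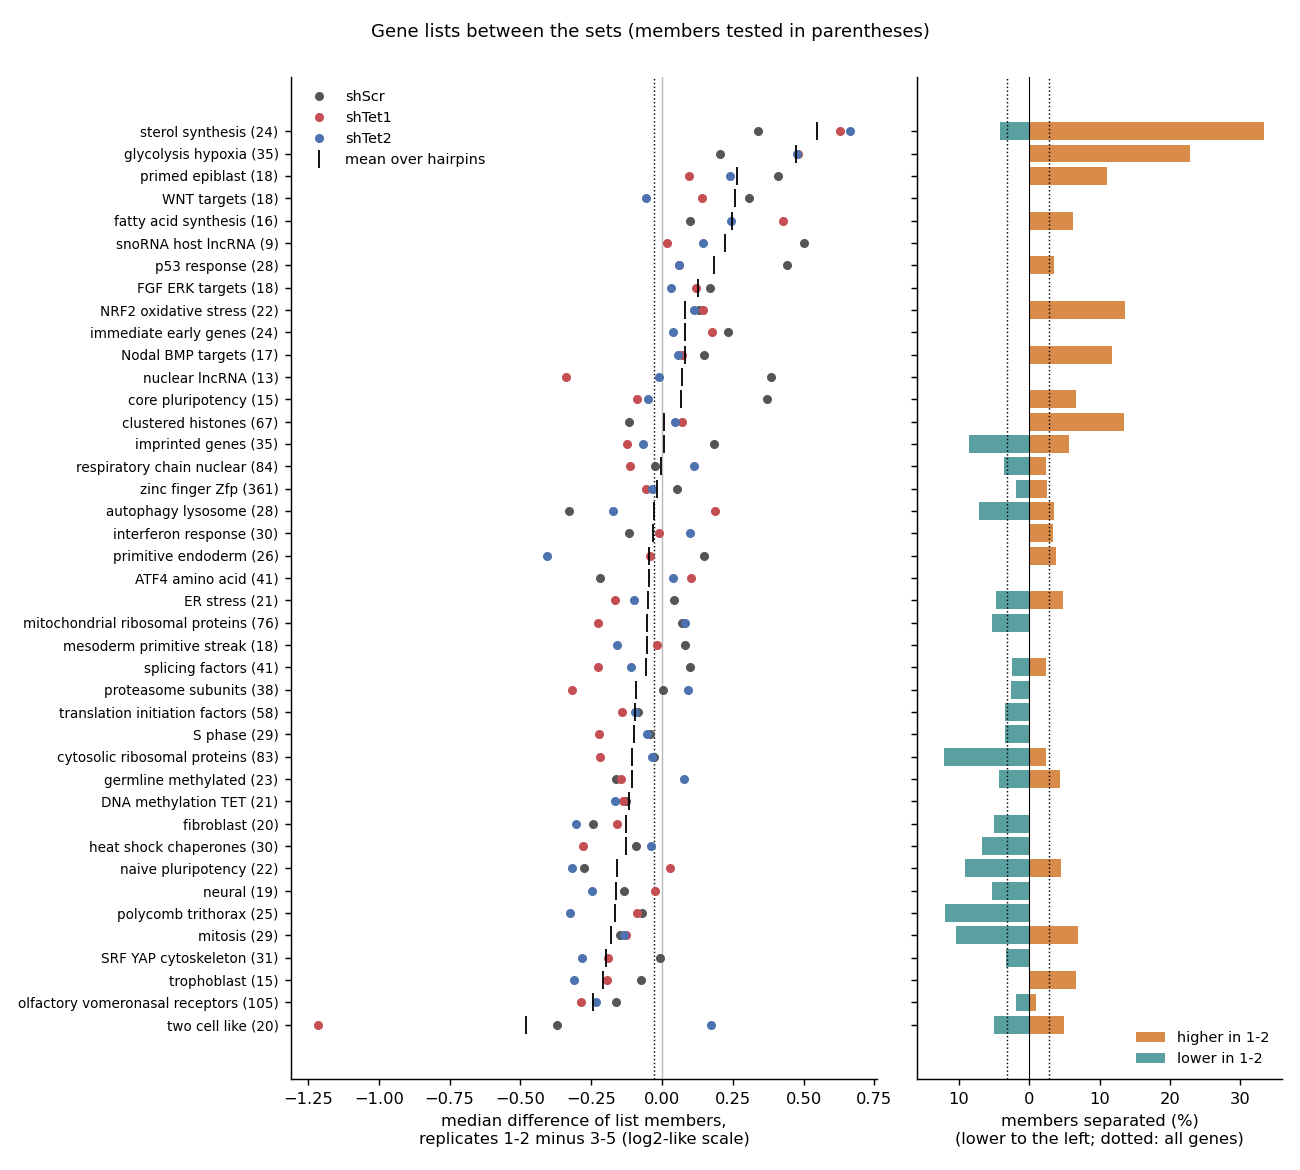
Median difference of each gene list between the sets (left axis, replicates 1 and 2 minus 3 to 5, log2-like scale, a point per hairpin and a bar for the members' mean over hairpins) and the share of members separated in percent (right, higher to the right and lower to the left). Of the lists plotted, from which the mitochondrial genome is left out, sterol (0.55) and hypoxia (0.47) have the highest medians, and dotted lines mark all genes, at 2.82% higher and 3.19% lower.

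The GC content of transcripts went with the difference, in the same gene values that the split was read from. Among genes averaging at least 3 units over the lowest value of the table in the higher set, 10127 of 10306 had the GC content of a coding transcript. Genes higher in replicates 1 and 2 had a median GC content of 54.6% (453 genes), those lower 46.2% (448) and the others 49.5% (9226). The 10127 genes together thus held 453 higher and 448 lower. In the richest of 5 equal bins by GC content (55.3% to 69.0%, 2026 genes), 192 were higher and 21 lower (9.48% and 1.04%). Its median difference was 0.17 (shScr 0.15, shTet1 0.21, shTet2 0.15). In the poorest bin (31.9% to 44.0%, 2026 genes), 44 were higher and 142 lower (2.17% and 7.01%), with a median of −0.11. By transcript length, the second of 5 bins held 110 higher and 75 lower genes (5.43% and 3.70% of 2025). The longest held 51 and 81 (2.52% and 4.00% of 2026), and its median was 0.13 in shTet1 and −0.17 in shTet2. Library by library, the median deviation of the richest bin minus that of the poorest was 0.15 to 0.32 in 5 of 6 libraries of replicates 1 and 2 and −0.22 to −0.04 in 8 of 9 of replicates 3 to 5. The exceptions were shScr replicate 2 (−0.11) and shScr replicate 5 (0.06), so the ordering was not that of the sets in every library. The part of GC content in the differences of the named genes was not tested, and among these Lefty1 (58.6%) and Slc16a3 (56.6%) were rich in GC whereas Bnip3 (41.6%) was poor.

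**Figure D4:**
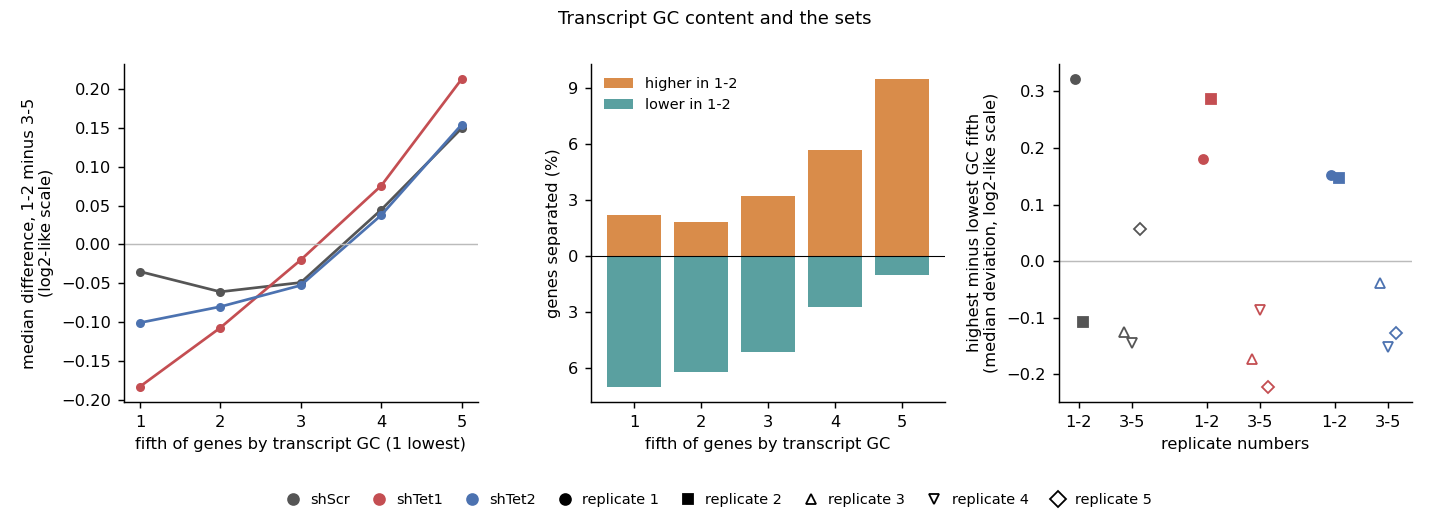
GC content of transcripts and the sets: the median difference per GC bin for each hairpin (left, log2-like scale), the percentage of genes separated per bin (middle), and the richest bin's median deviation minus the poorest bin's in each library (right). The richest bin has 192 higher and 21 lower genes, and shScr replicates 2 (−0.11) and 5 (0.06) lie on the other set's side of 0.

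The hairpin contrasts were asked again with the set as a term, and each contrast was compared between the sets. The set was chosen as the largest residual variation of these same values, so a term for it lowers the residual spread by selection, and the p-values and intervals of these fits are too small to that extent. Both hairpins lowered their target in each set. Tet1, which oxidises methylated cytosine in DNA, was 14.04 and 14.25 in shScr replicates 1 and 2 and 12.03 and 12.18 in shTet1. The shScr libraries of replicates 3 to 5 had 13.68, 14.04 and 13.92, and those of shTet1 had 12.41, 12.18 and 11.93. The groups did not overlap in either set. With the set as a term the effect was −1.84 (SE 0.19, limma with Benjamini-Hochberg adjusted p = 0.000225). It was −2.03 in replicates 1 and 2 and −1.70 in replicates 3 to 5, and the difference of −0.33 had a 95% interval of −1.11 to 0.45 (adjusted p = 0.811).

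Tet2, of the same enzyme family, was 13.15 and 13.24 in shScr replicates 1 and 2 and 11.32 and 11.12 in shTet2. Replicates 3 to 5 had 13.26, 13.52 and 13.45 (shScr) and 11.61, 11.48 and 11.59 (shTet2). Again no library of one group reached the other. The effect with the set as a term was −1.90 (SE 0.11, limma adjusted p = 1.2e-08). The effects of −1.97 and −1.85 in the 2 sets differed by −0.12 (95% interval −0.61 to 0.36, adjusted p = 0.960).

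With the set as a term, limma called 264 genes (1.35% of 19490) for shTet1 against shScr, 138 higher and 126 lower. It called 266 (1.36%) for shTet2 against shScr, 172 higher and 94 lower, and 1263 (6.48%) for shTet2 against shTet1, 788 higher and 475 lower. Without the set as a term, whose choice these p-values do not allow for, the counts were 14, 76 and 827. By correlations in these same values, which cannot show that libraries are paired, the numbers were taken to pair the shTet1 and shScr libraries. The fit with the replicate number as a block called 935 genes for shTet1 against shScr. The count of 264 fell to 106, 24 and 157 when replicate 1, 2 or 3 of shScr was left out, and was 12, 12, 175, 46 and 587 when replicate 1, 2, 3, 4 or 5 of shTet1 was. That of 266 fell to 72, 166 and 134 without replicate 1, 2 or 5 of shScr, to 165 without replicate 2 of shTet1, and to 67, 52 and 117 without replicate 1, 2 or 4 of shTet2. That of 1263 fell to 813 and 802 without replicate 1 or 2 of shTet1 and to 812 and 728 without replicate 1 or 2 of shTet2. The lowest value of each count came from leaving out a library of replicate 1 or 2.

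Most called genes had the larger estimated effect in replicates 1 and 2. All 264, 266 and 1263 called genes had the same sign in both sets, which their calling on the same libraries favours. The median size of their effects was 1.05, 0.97 and 0.86 in replicates 1 and 2 and 0.62, 0.66 and 0.65 in replicates 3 to 5, in the same order. The effect was the larger in replicates 1 and 2 for 236, 221 and 914 of them. The same count over all genes was not made. Effects in replicates 1 and 2 rest on 2 libraries a group and those in replicates 3 to 5 on 3, so the former scatter more. The counts are therefore no result about the called genes, and the test of the difference, given below, called none. Spnb1, which encodes the spectrin beta chain of the membrane skeleton, was 7.97 and 7.63 in shScr replicates 1 and 2 and 9.87 and 9.84 in shTet1. For replicates 3 to 5, shScr had 7.65, 8.19 and 7.77 and shTet1 had 8.81, 9.50 and 8.57. The shTet1 libraries lay above all shScr libraries in both sets, by a mean of 2.05 and of 1.09. The difference of 0.97 had a 95% interval of 0.17 to 1.76, and it was not called after adjustment over all genes. Scd1, a fatty acid desaturase (1.42), had effects of 2.03 and 1.004 in the 2 sets. The other genes furthest up in shTet1 were Hivep2 (1.34), Polr3gl (1.23) and Lphn2 (1.21).

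After Tet1, the genes that fell furthest with shTet1 were Ttn (−1.38), which encodes titin, the predicted genes Gm12800 (−1.38) and Gm8300 (−1.29), and Zscan4b (−1.30). For shTet2 against shScr, Dppa3, a maternal factor that limits DNA methylation, rose by 1.41 (2.01 in replicates 1 and 2 and 1.01 in replicates 3 to 5). Inhbb, a subunit of activin, fell by 1.67 (limma effects of −1.71 and −1.65 in the 2 sets). It was 7.85 and 7.58 in shTet2 replicates 1 and 2 and 9.75 and 9.09 in shScr. Later replicates (3 to 5) had 8.31, 7.53 and 8.48 in shTet2 and 9.97, 8.99 and 10.28 in shScr. The shTet2 libraries lay below all shScr libraries in both sets. Other genes furthest up in shTet2 against shScr were Cd109 (1.39), the homeobox gene Crxos1 (1.34), Tdpoz3 (1.32) and Pou2f3 (1.31). Beside Tet2 and Inhbb, those furthest down were Cubn (−1.63), l7Rn6 (−1.42) and Ormdl2, a regulator of sphingolipid synthesis (−1.38). The effect on Cubn was −3.16 in replicates 1 and 2 and −0.60 in replicates 3 to 5. The difference of −2.56 had a 95% interval of −3.64 to −1.48 and was not called after adjustment over all genes (limma adjusted p = 0.878). Cubn was 10.10 and 10.67 in shScr replicates 1 and 2 and 7.48 and 6.97 in shTet2. Replicates 3 to 5 had 8.77, 8.98 and 8.88 (shScr) and 8.95, 8.07 and 7.79 (shTet2), so that the groups overlapped in that set only. In shTet2 against shTet1 they were Gm12800 (2.54), Gm12794 (2.39), Tdpoz3 (2.38), Gm2016 (2.37) and Gm5662 (2.33) above 0, and Inhbb (−2.0), Tet2 (−1.63), Polr3gl (−1.44), Slc25a15 (−1.43) and Hivep2 (−1.42) below. Tet3, the third gene of the family, was not called in any contrast (−0.42, −0.13 and 0.29, in the order above).

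The test of the difference between the sets called 0 genes (0% of 19490) and 0 repeat classes (0% of 1187) in each of the 3 contrasts by limma. Before adjustment, a p under 0.05 was reached by 1600 genes and 72 repeat classes for shTet1 against shScr, by 1043 and 49 for shTet2 against shScr, and by 1190 and 8 for the contrast of both knockdowns, and the lowest adjusted p over genes was 0.567, 0.878 and 0.188. With the replicate number as a block, 147 genes (74 above 0) and 5 repeat classes were called for shTet1 against shScr. No label pairs the libraries by number. The pairing was read from these same values, and the block was fitted on all libraries, those of shTet2 included. The blocked p-values rest on that choice, which the check of pairing cannot bear out. The genes furthest from 0 in the blocked fit were Gm10800 of the satellite group (−2.39), the interferon-induced GTPase Irgm1 (−2.21), Cubn, a receptor for vitamin-binding proteins (−1.96), Fgfbp1 (−1.90) and Vrtn (−1.86) below 0. Above 0 they were Atp2b2, a calcium pump (2.12), the hexokinase Hk1 (2.02), Gch1, which starts the synthesis of tetrahydrobiopterin (1.99), Zc3h6 (1.99) and Plxdc1 (1.99). Hk1 was 9.25 and 7.71 in shScr replicates 1 and 2 and 10.91 and 10.28 in shTet1. Its values in replicates 3 to 5 were 9.47, 9.58 and 9.45 (shScr) and 9.39, 10.002 and 9.39 (shTet1). The groups were apart in replicates 1 and 2 and overlapped in replicates 3 to 5 (blocked limma adjusted p = 0.0262, unblocked 0.567). The low value of shScr replicate 2 adds to this contrast, and several of the other genes above 0 were low in that library too (Gch1 4.25, Atp2b2 4.62, Zc3h6 5.89).

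Of the repeat classes, 5 (0.421% of 1187) were called with the set as a term for shTet2 against shTet1, all higher, and 0 for the other contrasts. They were MERVL-int, the body of the retrovirus active in the 2-cell embryo (2.15, limma adjusted p = 0.00168), its long terminal repeat MT2_Mm (1.99), ORR1A3-int (1.82), MT2C_Mm (1.08) and MERVL_2A-int (1.08). The count was 3 without shTet1 replicate 1, 2 or 5 and without shTet2 replicate 1, 2 or 4. In replicates 1 and 2, MERVL-int had values of 17.89 and 18.77 (shScr), 15.35 and 16.47 (shTet1) and 18.89 and 19.33 (shTet2). Over replicates 3 to 5 the values were 18.68, 18.46 and 18.39 (shScr), 18, 17.63 and 17.60 (shTet1) and 19.20, 19.45 and 18.95 (shTet2). The libraries of shTet1 were below those of shScr in both sets, and furthest below in replicates 1 and 2.

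The effect of shTet1 on MERVL-int was −2.42 in replicates 1 and 2 and −0.77 in replicates 3 to 5. The difference of −1.65 had a 95% interval of −2.61 to −0.69 (limma adjusted p = 0.442), and with the replicate block its adjusted p was 0.0135. MT2_Mm had effects of −2.11 and −0.72 and a difference of −1.39 (blocked limma adjusted p = 0.0333, unblocked 0.442). The difference for the median repeat class was −0.66 in this contrast, so about that much of each was common to the whole table. GSAT_MM (−3.12) and (CGAAA)n (−2.72) were also called in the blocked fit, with adjusted p of 0.0135 and 0.0250 by limma, as was ORR1A3-int (−1.55). For GSAT_MM the values of replicates 1 and 2 were 11.76 and 12.71 (shScr), 9.34 and 10.37 (shTet1) and 12.29 and 12.24 (shTet2), so that shTet1 was lowest in that set. They were 17.21, 19.32 and 15.46 (shScr), 19.36, 18.99 and 15.85 (shTet1) and 19.22, 19.44 and 16.93 (shTet2) in replicates 3 to 5.

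L1Md_T, a young L1 class, had 18.96 and 19.18 (shScr), 18.06 and 17.95 (shTet1) and 18.14 and 18.44 (shTet2) in replicates 1 and 2. The libraries of replicates 3 to 5 had 18.86, 19.38 and 18.67 (shScr), 19.02, 19.02 and 18.29 (shTet1) and 19.41, 19.07 and 18.59 (shTet2). Both knockdowns lay below shScr in replicates 1 and 2, whereas all groups overlapped in replicates 3 to 5. The effect of shTet1 was −1.07 and −0.19 in the 2 sets, a difference of −0.87 (95% interval −1.73 to −0.02, limma adjusted p = 0.466), and that of shTet2 was −0.78 and 0.05. As the differences of the median class were −0.66 and −0.58, most of this lay in the table as a whole.

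Genes of the 2-cell-like state, which a minority of ESCs enter and which MERVL marks, had larger hairpin effects in replicates 1 and 2. Over the 20 genes of the list, the effect of shTet1 against shScr had a median of −1.53 in replicates 1 and 2 and of −0.63 in replicates 3 to 5. The difference was below 0 in 20 of 20, against 9742 of all 19490 genes (median −0.85, against 0.00 over all genes). None of the 20 differences was called in the fit without the block. Many of these genes share reads as near-identical paralogs, so the 20 are not independent. With the set as a term, limma called 9 of them lower in shTet1 than in shScr, 9 higher in shTet2 than in shScr and 19 higher in shTet2 than in shTet1. Over all genes, the shares called in either direction were 1.35%, 1.36% and 6.48%, in that order. Zscan4c, a zinc finger gene expressed in bursts in these cells, had 11.96 and 11.98 (shScr), 9.61 and 10.45 (shTet1) and 13.28 and 13.67 (shTet2) in replicates 1 and 2. From replicate 3 to 5 the values were 12.48, 12.14 and 12.40 (shScr), 11.64, 11.07 and 11.83 (shTet1) and 12.80, 13.16 and 12.88 (shTet2). The 3 groups kept their order in both sets, and the gaps were wider in replicates 1 and 2. Between the sets themselves, the list differed by a median of −0.48 (shScr −0.37, shTet1 −1.21, shTet2 0.17), with Sp110 higher (1.22) and Arg2 lower (−0.79).

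**Figure D5:**
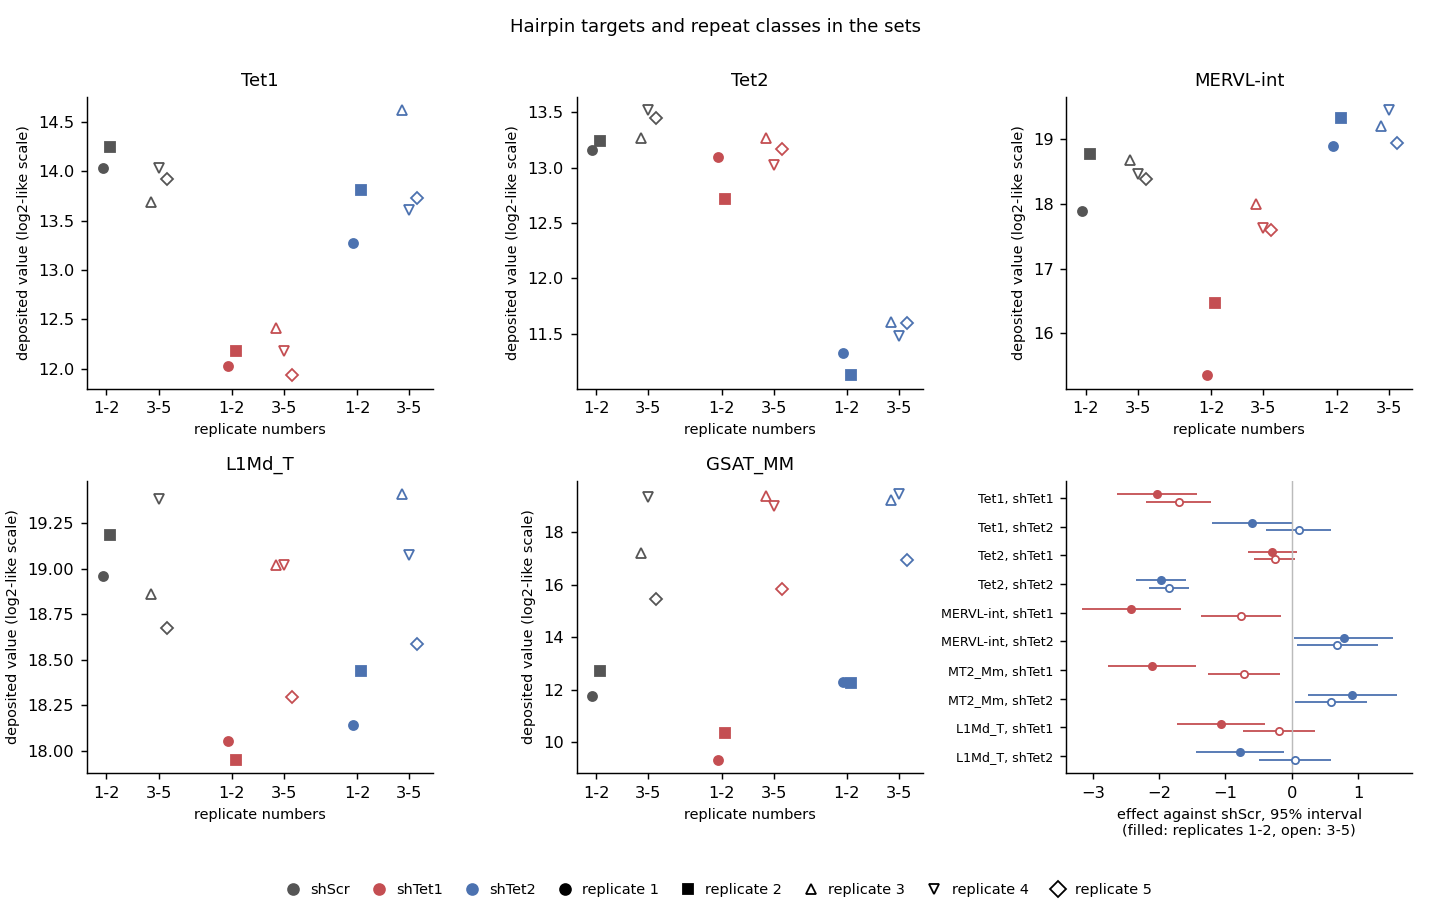
Deposited values (log2-like scale) of Tet1, Tet2, MERVL-int, L1Md_T and GSAT_MM in each library, and the limma effects against shScr with 95% intervals in each set (lower right; filled for replicates 1 and 2, open for 3 to 5). The target effects are alike in both sets (−2.03 and −1.70 for Tet1 in shTet1), while that of shTet1 on MERVL-int is −2.42 and −0.77.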

How the data were processed

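Gene and repeat tables of 15 RNA-seq libraries were used. Per the submitters' processing notes and the methods of the study, reads were trimmed (Trim Galore 0.3.3), aligned to mm9 with TopHat2 2.0.9, keeping 1 position of a multi-mapping read, and counted per gene and per repeat class in Seqmonk. The values deposited by the authors are variance-stabilised log2 values from DESeq2; use of strand in counting was not stated. Undoing the transformation gave whole reads (within 0.05) for 100% of values, with minima of 4.25 (genes) and 2.39 (repeats) standing for 0 reads; reads per 1000000 gene reads (RPM) come from these, and their precision is limited by 15258291 to 35432425 gene reads a library. The repeat table was scaled by gene reads.

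Features above the minimum in at least 5 of 15 libraries were kept (19490 of 26061 genes, 1187 of 1217 classes). Set differences were averaged over hairpin groups, without tests. Hairpin effects and their differences between sets were fitted with limma 3.58.1 (R 4.3.3; lmFit, eBayes with trend; two-sided; Benjamini-Hochberg over each table; threshold 0.05). Other steps used Python 3.11.15, numpy 2.4.6, pandas 2.3.3 and matplotlib 3.10.9. Positions and GC content came from GENCODE vM1 (mm9) by symbol (26036 genes; 25 symbols had become calendar dates), promoters from RefSeq.

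Named features were, per direction, the 12 genes and 6 repeat classes with the largest difference among those separated, with the higher set at least 3 units over the minimum and predicted genes skipped, up to 4 members per gene list, the 3 Tet genes, 5 repeat classes, and 5 called genes per direction and hairpin contrast. Some items are not reported here. The sets, members and lists were chosen with earlier results of these data known.

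Deviations of same-numbered libraries from their means correlated by 0.16 to 0.62 between shScr and shTet1, all over 0.1, which was taken as pairing. They reached −0.02 to 0.59 between shScr and shTet2 and 0.09 to 0.60 between shTet1 and shTet2, which was not. No label pairs the libraries, and the pairing was read from these same values. Alternatives covered centring, quantile normalisation, filters, the trend, array weights, the block and leaving out each library.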

Additional observations from a re-analysis of the deposited data

Results flagged for a closer look

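In 168 named genes and repeat classes, each looked at in 3 hairpin groups of 5 libraries, 1 library stood apart from the other 4 in 11 of 504 cases (2.18%), by a gap of more than 0.71 of the group's range. For 5 values of 1 normal spread the rule gives about 1 in 20 such cases. Many of these features were picked for a gap between 2 and 3 libraries of a group. The 2.18% can therefore not be set against that rate.

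Rps16 stood out in replicate 2 of every hairpin group: it was 6.62 in shScr (the nearest library was 9.74), 8.33 in shTet1 (10.03) and 8.14 in shTet2 (10.01). Rps29 was low in the same shScr replicate 2, at 9.32 (10.63). Other single low libraries were those of Gsr, glutathione reductase, in shScr replicate 4 (10.05, nearest 10.65), Spred1 in shTet1 replicate 4 (11.10, nearest 11.58), Snai1 in shTet1 replicate 1 (4.25, nearest 4.82) and Rnf2 in shScr replicate 1 (12.26, nearest 12.51). Single high libraries were those of Sp110 in shTet1 replicate 2 (6.65, nearest 6.03), Gabarapl2 in shTet2 replicate 5 (11.59, nearest 10.90) and Tet3 in shTet2 replicate 3 (8.12, nearest 6.996). Snai1 was at the lowest value of the table, which stands for 0 reads.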

How the results depend on the processing

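No separated difference and no called effect of a named feature reversed under any alternative run. Calls were still lost: hairpin effects of named genes lost their call in 72 cases and kept their status in 756. For named repeat classes a call was lost in 15 cases, gained in 8 and unchanged in 391. Set differences of named repeat classes moved by at least their spread in 18 cases and by less in 339. The set counts of 550 and 621 genes were 234 and 226 when separation was asked over all libraries without the hairpin group, and 7 and 47 repeat classes became 2 and 27. Centring gave 100 higher repeat classes, and quantile normalisation 89 higher and 71 lower. For hairpin effects, centring and quantile normalisation gave 168 and 138 genes for shTet2 against shScr and 10 and 12 repeat classes for shTet2 against shTet1, and no filter on low values gave 161 genes for shTet1 against shScr. Without the set as a term, 14, 76 and 827 genes and 3 repeat classes were called. Array weights gave 912, 706 and 2766 genes and 22, 142 and 26 repeat classes, 31 genes for the difference between the sets (shTet2 against shTet1), and 899, 779 and 123 repeat classes for that difference, where the estimate of the weights did not converge and the counts should not be used.

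Averaging the libraries of each replicate number, a block over 5 numbers in place of 15 libraries, gave 3118 higher and 3962 lower genes and 54 and 457 repeat classes, since fewer orderings are then required. With the replicate block in limma, hairpin effects called 935, 840 and 2178 genes, and the difference between the sets called 147 genes and 5 repeat classes for shTet1 against shScr and 21 genes and 3 repeat classes for shTet2 against shTet1. Outside shTet1 against shScr the numbers did not pass the check of pairing, which cannot show the groups that are paired. The block's counts in all contrasts are given only as such.

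Leaving out 1 library at a time gave 590 to 954 higher and 647 to 1005 lower genes, 7 to 10 higher and 47 to 196 lower repeat classes, and 12 to 587, 52 to 354 and 728 to 1458 called genes in the 3 contrasts. The difference between the sets then called 0 to 6, 0 to 4 and 0 to 10 genes, with 6 and 4 without shScr replicate 1, 10 without shTet1 replicate 2 and 4 without shTet1 replicate 4, and 0 to 1 repeat classes. Repeat classes called for shTet2 against shTet1 ranged from 3 to 5. Depth limits genes near the lowest value, whose differences the scale understates, and 2 libraries a cell limit the test of the difference.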

Other observations

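Other lists held few separated genes, beside 2.82% higher and 3.19% lower of all genes. Atg7, an enzyme of autophagy, was higher (0.84) in a list of 28 autophagy and lysosome genes with 1 higher and 2 lower. Zbp1, a sensor of Z-form nucleic acid, was higher (0.90) in 30 interferon genes with no other separated. Hsp90ab1, an abundant chaperone, was lower (−0.63) in 30 heat shock genes with 2 lower. Birc5, which acts at the centromere in mitosis, was lower (−0.79) in 29 mitosis genes with 2 higher and 3 lower. The 361 zinc finger genes named Zfp held 9 higher and 7 lower (2.49% and 1.94%, at or under those shares), 35 imprinted genes 2 higher and 3 lower (5.71% and 8.57%), and 28 p53 response genes 1 higher (3.57%), with medians of −0.02, 0.01 and 0.18.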
